A study of Mus musculus with 4 samples.

Results

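The adipogenic transcription factors considered here were 9 genes that drive or prepare fat cell formation: Pparg, Cebpa, Cebpb, Cebpd, Klf15, Zfp423, Ebf1, Ebf2 and Ebf3. They were chosen by gene symbol, from probe sets annotated with exactly 1 symbol, and all 9 were found on 10 probe sets of the 41345 in the table. Expression was measured on 4 arrays of mouse skeletal stem cells (SSCs), the stem and progenitor cells of bone and its marrow stroma. There were 2 arrays from Mmp14+/+ (wild type) and 2 from Mmp14-/- (Mmp14 knockout) cells. All cells came from mice 4 to 6 weeks old and were grown for 48 h inside 3D collagen gels. Mmp14 encodes MT1-MMP, a protease held at the cell surface that degrades fibrillar collagen. The labels name no Cre driver, no sorting markers and no number of animals per array, so the p-values measure only the spread between these arrays, which may be technical.

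Fat cell formation is ordered by a cascade of these factors. Cebpb and Cebpd encode C/EBPbeta and C/EBPdelta, which respond first to hormonal cues and switch on Pparg and Cebpa. Pparg encodes the nuclear receptor PPARgamma, without which fat cells do not form, and C/EBPalpha, the product of Cebpa, keeps it active. Klf15 encodes a Krüppel-like zinc finger protein that acts within this cascade, Zfp423 encodes a zinc finger protein of committed preadipocytes, and the early B cell factors Ebf1, Ebf2 and Ebf3 act upstream of Pparg and in marrow stromal cells. In bone marrow the same stromal progenitors can form bone or fat, and these factors are known for the choice of the fat lineage.

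Pparg, Klf15 and Ebf1 were higher in the knockout arrays, and the other 6 factors were not called in either direction. Pparg was 4.97-fold higher, Klf15 3.76-fold and Ebf1 1.61-fold (limma on all tested genes, called at a Benjamini-Hochberg adjusted p below 0.05, n = 2 arrays per group). The 3 higher genes made up 33.3% of the 9 factors. Over all 12708 genes tested, 11.3% were called in either direction, 6.20% higher and 5.12% lower in knockout. All values are log2 intensities of 1 probe set, and a difference is the knockout mean less the wild-type mean, in log2 units. Without the filter on dim genes the 3 genes kept their calls, against 2.87% of 22180 genes called higher. Differences were taken between arrays for the same probe set. Levels of different probe sets were only held against common limits and, in marker lists, summed, which gives no measure of RNA amount between genes. In such bulk samples, more cells that express a gene and more RNA per cell cannot be told apart.

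**Figure D1:**
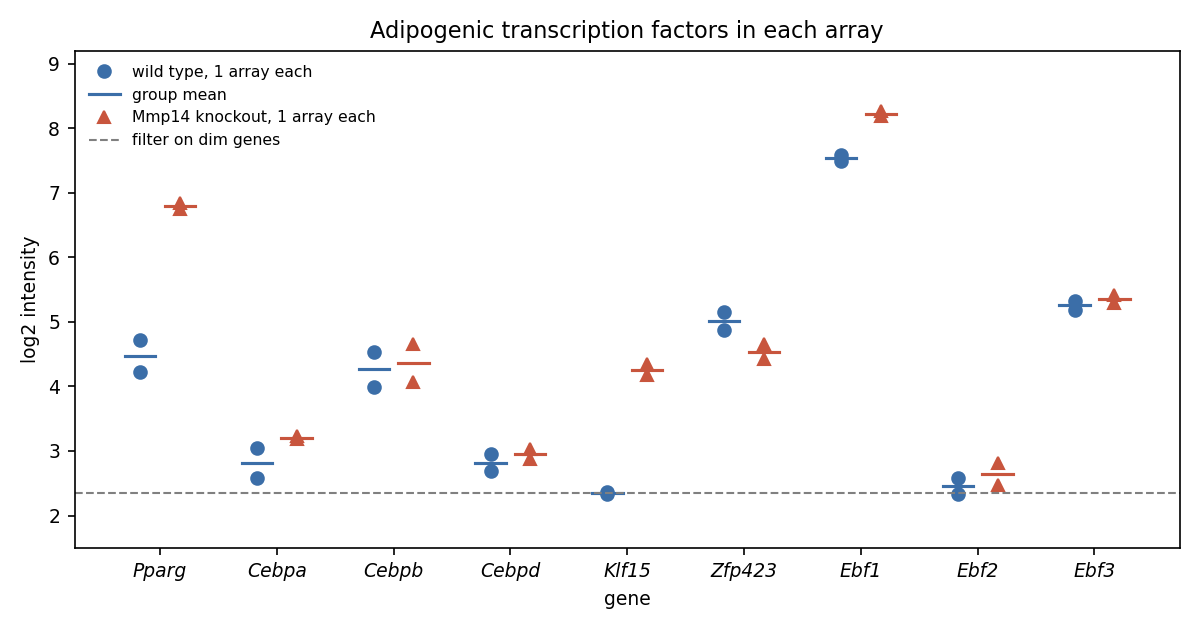
Log2 intensity (y axis) of the 9 adipogenic transcription factors (x axis) in each of the 2 wild-type arrays (circles) and 2 Mmp14 knockout arrays (triangles), with group means as short lines and the limit for dim genes at 2.34 log2 as a dashed line. The knockout arrays of Pparg lie at 6.84 and 6.74 against 4.23 and 4.73 in wild type, and the wild-type arrays of Klf15 lie at the dashed line.

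Mmp14 itself checked the labels, with values of 8.77 and 8.83 in wild type against 5.77 and 5.84 in knockout. The replicate arrays correlated at 0.992 in wild type and 0.994 in knockout over the tested genes, and arrays of different groups at 0.970 to 0.975. Some transcripts linked to sex moved with genotype too. Of 4 sex-linked markers tested, 1 was called higher, 1 lower and 2 were not called, and 3 had an unadjusted limma p below 0.05. Xist, the RNA of the inactive X chromosome, read 8.45 and 8.48 in wild type against 9.30 and 9.09 in knockout, and the Y-linked Eif2s3y was at 6.18 and 5.79 against 5.19 and 5.40. Both passed the test (0.73, limma adjusted p = 0.0155, and −0.69, limma adjusted p = 0.0474). Without Mmp14 knockout replicate 1 neither did (0.0801 and 0.176), nor did Eif2s3y without wild type replicate 1 (0.107), the second knockout array (0.0648) or the filter on dim genes (0.0676). The part of this difference in the results on the adipogenic factors was not tested.

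Pparg gave the largest difference of the 9. The wild-type arrays read 4.23 and 4.73, and the knockout arrays read 6.84 and 6.74. Both knockout arrays lay above both wild-type arrays, with 2.02 between the nearest pair, while the wild-type arrays lay further apart from each other than the knockout arrays did. The difference was 2.31 (SE 0.177, 95% confidence interval 1.88 to 2.75, limma adjusted p = 0.00158), or 3.68-fold to 6.72-fold at the ends of the interval. By size of increase Pparg ranked 28 among the 12708 genes. It was called under each of the 15 alternative settings that were run, with differences between 2.07 and 2.56.

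Pparg is read from several start sites, and the fat-enriched isoform PPARgamma2 is known to start downstream of the others. RefSeq (GRCm38.p6) gives 3 starts, all on the plus strand of chromosome 6, and 1 probe set of the array reports on the gene, so the starts were not measured apart. The window from 250 bases before to 50 after the most downstream start, chr6:115421816-115422115, is shown because it was the only Pparg window with matches to the C/EBP motif TTGCNNAA, searched on both strands. Capitals mark these matches, which begin at positions −215 and −16 counted from the start.
Pparg, downstream start: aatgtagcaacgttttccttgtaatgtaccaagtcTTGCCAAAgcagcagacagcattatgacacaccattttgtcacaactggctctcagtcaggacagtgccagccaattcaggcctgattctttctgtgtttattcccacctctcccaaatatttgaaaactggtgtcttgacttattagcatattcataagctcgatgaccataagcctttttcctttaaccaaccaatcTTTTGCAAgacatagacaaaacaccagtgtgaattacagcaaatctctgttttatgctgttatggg
The motif was present in 10.8% of the 32851 RefSeq start windows of this length. Among the 11 windows of the 7 factors that had one in the table, it was found in this Pparg window and in 1 of 2 Zfp423 windows. A match in letters is a description and does not show binding.

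Klf15 had the second largest difference. It was measured at 2.34 and 2.36 in wild type against 4.35 and 4.17 in knockout. The wild-type arrays lay at the limit set for dim genes, 2.34 log2, which is the median over all probe sets, and the knockout arrays lay clearly above it. The difference was 1.91 (SE 0.113, 95% confidence interval 1.64 to 2.19, limma adjusted p = 0.000993), and its size is uncertain because the wild-type signal was so near that limit. Klf15 ranked 55 by size of increase. It was called under all 14 alternatives that included it, and the stricter filter on dim genes removed it.

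The Klf15 window lies on the plus strand at chr6:90462326-90462625 (GRCm38.p6). It is shown because it held the core letters of the cAMP response element, TGACG, on both strands. Factors that bind this element act early in fat cell formation, upstream of Cebpb. Capitals mark the matches, at positions −78 and −6 from the start.
Klf15: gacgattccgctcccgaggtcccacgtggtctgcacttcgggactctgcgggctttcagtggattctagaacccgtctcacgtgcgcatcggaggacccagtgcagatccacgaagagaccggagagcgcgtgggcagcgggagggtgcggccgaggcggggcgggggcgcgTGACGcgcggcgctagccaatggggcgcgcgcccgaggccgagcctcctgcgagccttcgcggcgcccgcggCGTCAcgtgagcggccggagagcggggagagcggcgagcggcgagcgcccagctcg
TGACG or its complement was found in 20.81% of all windows of this length. It was found in 4 of the 11 windows of the factors, those of Cebpb, Klf15 and Ebf3 and 1 of the 2 of Ebf1. The Cebpb window also held these letters on both strands, at positions −180, −53 and −7, and Cebpb was not called. The second Ebf1 window, chr11:44619978-44620277 on the plus strand, is shown to complete the 3 genes that rose, and its only capitals mark these letters at position 23 after the start.
Ebf1, second start: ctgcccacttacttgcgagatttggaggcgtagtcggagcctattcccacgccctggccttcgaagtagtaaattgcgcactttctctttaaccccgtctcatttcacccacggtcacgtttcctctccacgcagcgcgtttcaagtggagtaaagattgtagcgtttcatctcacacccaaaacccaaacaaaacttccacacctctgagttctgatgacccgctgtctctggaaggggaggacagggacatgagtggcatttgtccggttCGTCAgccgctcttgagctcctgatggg
No member window matched the STAT motif TTCNNNGAA, which was in 8.3% of all windows. The CACCC box of Krüppel-like factors, CCACCC (31.48% of all windows), was in 5 of the 11 windows, those of Cebpa and Cebpb, both of Zfp423 and 1 of the 3 of Pparg. The CCAAT box (CCAAT, 37.41%) was in 3, those of Klf15 and the other 2 of Pparg. These motifs were searched on both strands, and none of the motif patterns contains another.

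Among the early B cell factors, Ebf1 rose and the other two were not called. Ebf1, which in marrow is known from both B lymphocyte and stromal cells, was measured at 7.58 and 7.49 in wild type against 8.27 and 8.18 in knockout. The groups were 0.60 apart at their nearest arrays, and the arrays within each group differed by far less. The difference was 0.69 (SE 0.106, 95% confidence interval 0.43 to 0.95, limma adjusted p = 0.0134). The call was lost without Mmp14 knockout replicate 1 (0.64, adjusted p = 0.0749) and when every probe set of the table entered 1 fit (adjusted p = 0.107), in which 0.527% of probe sets were called.

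Ebf2, a factor of brown fat progenitors, was measured at 2.34 and 2.58 in wild type against 2.82 and 2.48 in knockout. These values overlapped and lay close to the limit for dim genes, with a difference of 0.19 (95% confidence interval −0.19 to 0.57, limma adjusted p = 0.479). Its second probe set was dimmer, between 1.20 and 1.48 on all 4 arrays, and gave −0.06. Ebf3, which marks stromal stem cells of the marrow, was measured at 5.18 and 5.33 in wild type against 5.42 and 5.29 in knockout. The groups overlapped, and the interval of the difference ran from −0.18 to 0.38, so a change as large as that of Ebf1 lay outside it. Whether Ebf1 differed from Ebf2 or Ebf3 in its response was not tested.

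**Figure D2:**
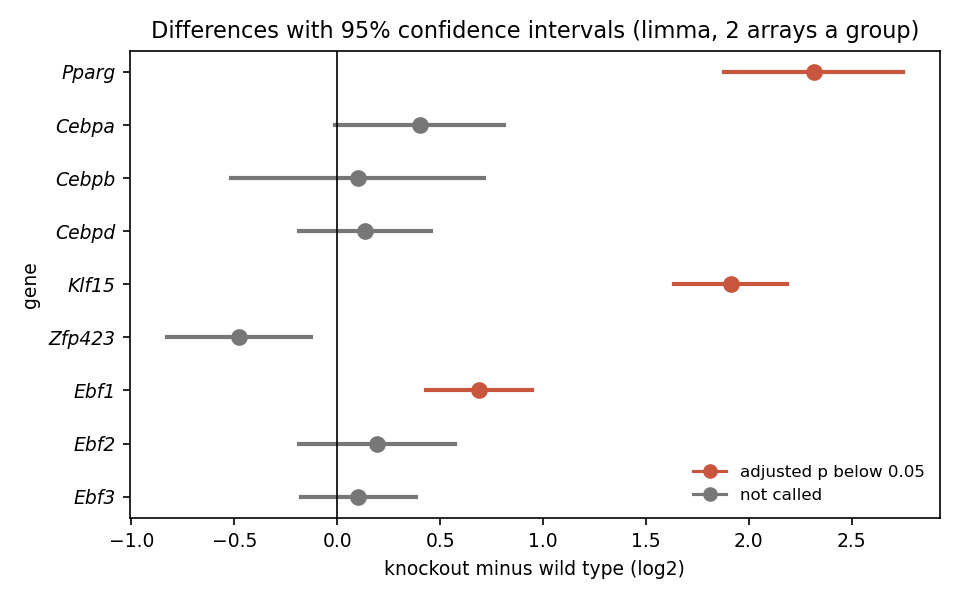
Difference between Mmp14 knockout and wild type (x axis, log2) for each factor (y axis), as the limma estimate (point) with its 95% confidence interval (line), red where the adjusted p was below 0.05. The intervals of Pparg, Klf15 and Ebf1 lie above 0, that of Zfp423 lies below 0 without a call, and the other 5 include 0.

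The 3 C/EBP genes were not called. Cebpa, the partner of Pparg in mature fat cells, was measured at 2.57 and 3.04 in wild type against 3.18 and 3.24 in knockout. The groups did not overlap, but only 0.14 separated the nearest arrays, less than the wild-type arrays differed from each other. The difference was 0.40 (SE 0.168, 95% confidence interval −0.01 to 0.81, limma adjusted p = 0.191). Without wild type replicate 2, which had the higher wild-type value, the difference was 0.63 and was called (adjusted p = 0.0482).

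Cebpb was measured at 4.00 and 4.53 in wild type against 4.66 and 4.07 in knockout. Each group held 1 higher and 1 lower array, the groups overlapped, and the interval was the widest of the 9, from −0.52 to 0.71 around 0.10 (limma adjusted p = 0.846). The sign turned to −0.17 without wild type replicate 1 and to −0.20 without Mmp14 knockout replicate 1. Cebpd was measured at 2.69 and 2.95 in wild type against 3.03 and 2.88 in knockout, again overlapping. Its difference was 0.13 with an interval from −0.19 to 0.46 (limma adjusted p = 0.564). The intervals of both early C/EBP genes ran from below to above no difference.

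Zfp423 was the only factor with a lower mean in knockout. Its product binds EBF proteins and is known to prepare preadipocytes for Pparg expression. It was measured at 4.88 and 5.15 in wild type against 4.65 and 4.42 in knockout. Both knockout arrays lay below both wild-type arrays, by 0.23 at the nearest. The difference of −0.48 (SE 0.143, 95% confidence interval −0.83 to −0.13) missed the threshold (limma adjusted p = 0.0901). The unadjusted p was 0.0156, and of the 9 factors 0 were called lower. Zfp423 was called with the stricter filter on dim genes (adjusted p = 0.0303).

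Across the 9 factors, 8 had a positive difference, and their median was 0.19 against −0.0041 over all tested genes. The groups did not overlap in 5 of the 9, with knockout above in 4 and below in 1. Over all tested genes the groups did not overlap in 57.8%, with knockout above in 28.0% and below in 29.8%. All 9 had a mean above the limit for dim genes, although in Klf15 and Ebf2 1 wild-type array was just under it.

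**Figure D3:**
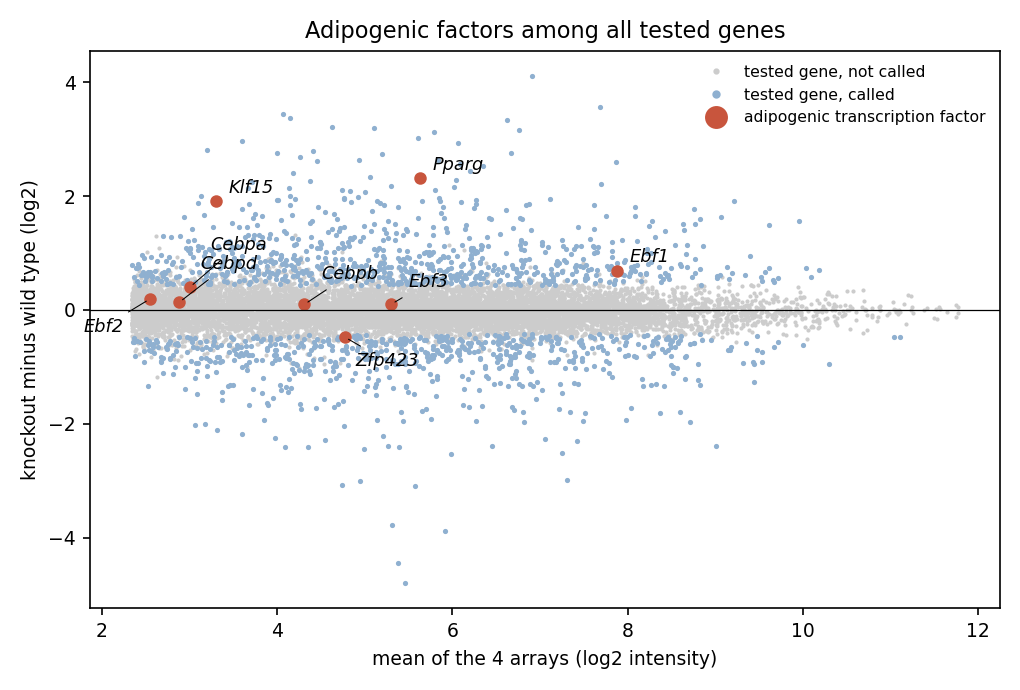
Difference between Mmp14 knockout and wild type (y axis, log2) against the mean of the 4 arrays (x axis, log2 intensity) for the 12708 tested genes, with called genes in blue and the 9 adipogenic transcription factors in red. Pparg at 2.31 and Klf15 at 1.91 lie among the upper called genes, while Ebf2, Cebpd, Cebpb and Ebf3 lie within the grey band of genes that were not called.

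The genes whose 4 array values, taken relative to their own mean, lay nearest to each called factor were found by Euclidean distance. For Pparg these were Fzd4 (distance 0.14 log2), Rspo2 (0.20) and Cdh13 (0.31), with differences of 2.25, 2.29 and 2.07. Fzd4 encodes a Frizzled receptor for Wnt ligands, Rspo2 a secreted enhancer of Wnt signalling and Cdh13 a cadherin anchored to the membrane by lipid. Fzd4 was dim in 1 wild-type array, at 2.30. For Klf15 they were Cldn1, Hgf and Gprc5b (0.07 to 0.10), and for Ebf1 they were Igf2r, Ptprj and Camsap3 (0.02 to 0.03). Over 4 arrays such likeness describes little more than a similar difference and spread.

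Close relatives of the factors were called in both directions, at a share near that of all tested genes (9.52% against 11.3%). Of 25 relatives (other PPAR and RXR receptors, C/EBP proteins, Krüppel-like factors, Zfp521 and Ebf4), 24 were measured by a probe set with a single symbol and 21 were tested. Klf12 rose, Klf9 fell and 19 were not called, with a median of 0.02. Klf12, a repressor of the Krüppel-like family, was measured at 4.12 and 4.26 in wild type against 6.14 and 6.05 in knockout, a difference of 1.91 (SE 0.109, limma adjusted p = 0.000983). Klf9, which is known to promote fat cell formation, was measured at 7.87 and 7.61 in wild type against 6.14 and 6.22 in knockout. Its difference was −1.56 (SE 0.127, limma adjusted p = 0.00189), opposite in sign to that of Klf15. Neither gene's groups overlapped. Among relatives that were not called, Zfp521, an antagonist of Zfp423 and Ebf1, had a difference of −0.02 (95% confidence interval −0.41 to 0.37). The receptor gene Ppard had 0.38 (0.05 to 0.70) and Rxra, which encodes the partner of PPARgamma on DNA, had −0.16 (−0.44 to 0.12).

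Other factors known to promote fat cell formation were called in both directions. Of 24 tested, 4 rose, 2 fell and 18 were not called, with a median of 0.20. The share called was 25%, against 11.3% of all tested genes. Egr2, an early zinc finger factor upstream of Cebpb, was at 3.98 and 4.06 in wild type against 5.58 and 5.08 in knockout (1.31, limma adjusted p = 0.00912). The T cell factor gene Tcf7l1 was at 8.10 and 8.26 against 9.12 and 9.19 (0.98, limma adjusted p = 0.00499). Prdm16, a regulator of brown fat, was 0.62 higher at its brighter probe set and 0.05 at the dimmer one. The coactivator gene Ncoa1 was 0.44 higher. Mecom, a zinc finger gene, fell, with 6.29 and 6.49 in wild type against 5.09 and 5.20 in knockout (−1.24, limma adjusted p = 0.003), and with −0.53 at a second, dim probe set. Ppargc1b, which encodes a coactivator of mitochondrial genes, fell by 0.65. Ncoa1 missed the threshold whichever array was left out (adjusted p between 0.0848 and 0.235), without the filter on dim genes (0.0814) and with each array centred on its median (0.0643). The adjusted p of Prdm16 was 0.0632 without wild type replicate 1, 0.0673 and 0.0949 without the first or second knockout array, and 0.0905 with the mean of its probe sets (0.34). That of Ppargc1b was 0.0847 without wild type replicate 1, 0.0697 without wild type replicate 2 and 0.12 without Mmp14 knockout replicate 2.

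Factors and signals known to restrain fat cell formation also moved both ways. Of 22 tested, 4 rose, 2 fell and 16 were not called, with a median of 0.01. The share called was 27.3%, against 11.3% of all tested genes. Sox9, the cartilage factor that represses C/EBP genes, was at 8.10 and 8.42 in wild type against 10.12 and 10.24 in knockout, and the ligand gene Wnt5a at 5.40 and 5.30 against 7.34 and 6.94. Gata2 and Gata3, related zinc finger genes that hold preadipocytes back, went in opposite directions. Gata2 was at 5.42 and 5.81 in wild type against 7.36 and 7.08 in knockout (1.61, SE 0.17, limma adjusted p = 0.00416). Gata3 was at 5.26 and 5.18 in wild type against 3.95 and 4.03 in knockout (−1.23, SE 0.104, limma adjusted p = 0.00206), with −0.18 at a second, dim probe set. Tcf7l2, a nuclear effector of Wnt signalling, rose by 0.71, and the Notch target Hes1 had a difference of −0.52. The adjusted p of Tcf7l2 was 0.0614 without Mmp14 knockout replicate 1. That of Hes1 was 0.132 without wild type replicate 2, 0.136 and 0.176 without the first or second knockout array, and 0.0738 without the filter on dim genes.

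Among genes that PPARgamma is known to activate, several of fatty acid handling and oxidation rose, while Fabp5 fell. Of 35 listed, 29 were measured and 24 tested, of which 8 rose, 1 fell and 15 were not called, or 37.5% called against 11.3% of all tested genes, with a median of 0.07. Whether this share differed from that of the other lists was not tested. Angptl4, which encodes a secreted inhibitor of lipoprotein lipase, was at 5.21 and 5.38 in wild type against 8.07 and 8.04 in knockout, a difference of 2.76 (SE 0.11, limma adjusted p = 0.000487). Plin4, a lipid droplet coat gene, was at 4.96 and 5.56 against 6.82 and 6.42, and Slc27a1, a fatty acid transporter gene, at 4.37 and 4.10 against 5.77 and 5.27. The other 5 that rose were Pdk4 (1.14), Lpl (0.95), Cpt1a (0.89), Acaa2 (0.81) and Cidea (0.81). Pdk4, Cpt1a and Acaa2 act in the switch to and the oxidation of fatty acids, Lpl encodes lipoprotein lipase, and Cidea acts on lipid droplets. Lpl gave −0.05 at a second, dim probe set. Cidea was at 2.19 and 2.60 in wild type against 3.07 and 3.33 in knockout. The size of its rise is uncertain because the wild-type signal was near the limit for dim genes. Fabp5, a fatty acid binding protein gene, fell by 1.74 at its brightest probe set, by 1.92 and 1.18 at 2 others and by 0.03 at the remaining one, which was below the limit for dim genes. The adjusted p of Lpl was 0.0526 without wild type replicate 2, and that of Cpt1a was 0.0565 without Mmp14 knockout replicate 1. That of Cidea was 0.082 without wild type replicate 1, 0.0508 and 0.112 without the first or second knockout array, and 0.0505 without the filter on dim genes.

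Markers of mature fat cells were below or near the limit for dim genes in both groups. Of 10 adipocyte markers, 9 were measured, 5 of them below the limit for dim genes on all 4 arrays, and 0 of the 4 tested were called by limma, with 0 at an unadjusted p below 0.05. Adipoq, the adiponectin gene, was at 2.36 and 2.50 in wild type against 2.25 and 2.39 in knockout, and Fabp4 was at 3.11 and 2.61 against 2.91 and 2.68. Plin1, Cidec, Lep, Pck1 and Slc2a4 made up the 5 below the limit. The summed linear signal of the list was 43.1 to 45.8 in wild type against 43.5 to 43.9 in knockout. The rise of Pparg and Klf15 was thus measured in arrays where no measured fat cell marker of this list exceeded 3.11 log2. Of 6 markers of brown or beige fat cells only Cidea had a mean above the limit. The summed linear signal of this second list was higher in knockout, at 22.8 to 24.6 in wild type against 30.3 to 36.7 in knockout. Dio2, which encodes a thyroid hormone activating enzyme, was at 1.59 and 1.70 in wild type against 2.72 and 3.08 in knockout. It was left out by the filter. The filter also left out Ppargc1a, with a difference of 0.89, Cox7a1 with −0.40, Elovl3 with −0.08 and Ucp1 with 0.04. Ucp1 was below the limit on all arrays.

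Among hormone and growth factor response genes of early fat cell formation, 2 of 19 tested rose, 3 fell and 14 were not called, with a median of 0.13. The share called was 26.3%, against 11.3% of all tested genes. The nuclear receptor gene Nr4a1 rose by 0.78 and the growth factor gene Igf1 by 0.55. Nr4a3 (−0.90), the zinc finger gene Zbtb16 (−0.81) and Bmp4 (−0.70), a ligand that commits stem cells to the fat lineage, fell. The knockout arrays of Zbtb16 were at 2.18 and 1.79, under the limit for dim genes, and the size of its fall is uncertain. Nr3c1, which encodes the glucocorticoid receptor upstream of Klf15 and Cebpd, had a difference of 0.01 (95% confidence interval −0.24 to 0.26). Igf1 missed the threshold whichever array was left out (adjusted p between 0.0532 and 0.214) and without the filter on dim genes (0.066). The adjusted p of Bmp4 was 0.0503 without wild type replicate 1 and 0.0823 without Mmp14 knockout replicate 1. That of Nr4a3 was 0.0867 and 0.111 without the first or second wild-type array, 0.0842 without Mmp14 knockout replicate 1 and 0.0511 without the filter on dim genes. That of Zbtb16 was 0.0504 and 0.102 without the first or second wild-type array and 0.0879 without Mmp14 knockout replicate 2.

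**Figure D4:**
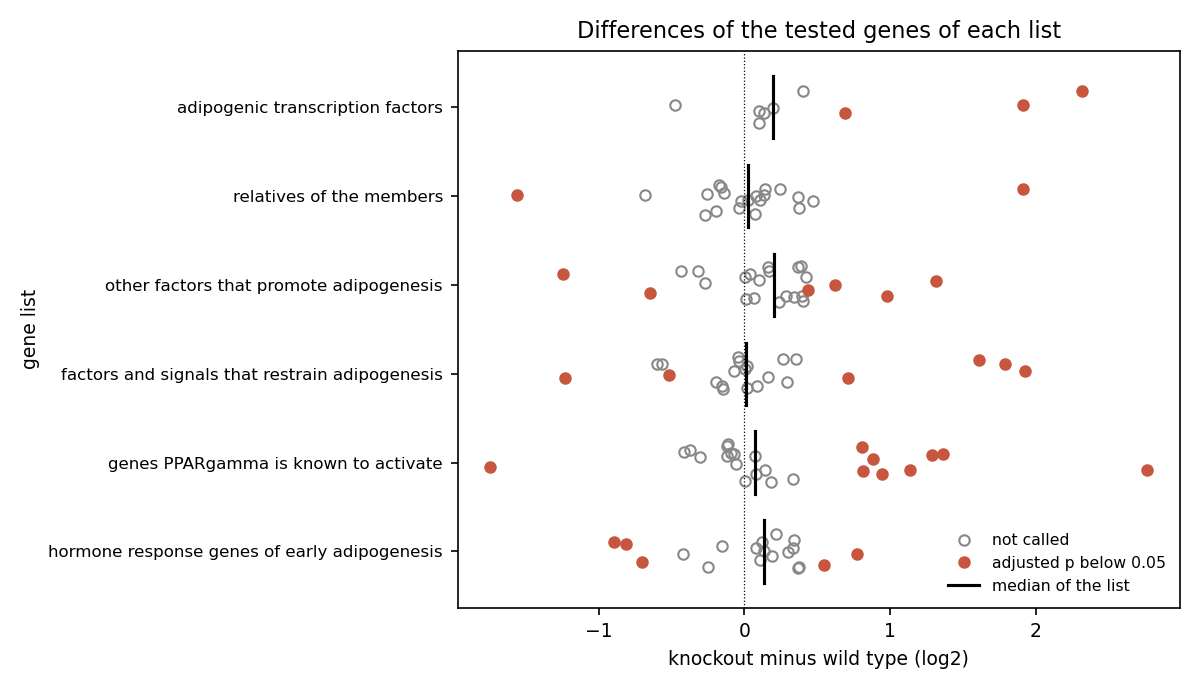
Difference between Mmp14 knockout and wild type (x axis, log2) of each tested gene of 6 lists (y axis), filled where the adjusted p was below 0.05, with the median of each list as a vertical bar. The medians lie between 0.01 and 0.20, and called genes lie on both sides of 0 in every list but that of the adipogenic transcription factors.

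Markers of other cell types that use these factors varied in signal, and some of them moved with genotype. Ebf1 also belongs to B lymphocytes, and all 7 measured B lymphocyte markers, Cd79a and Pax5 among them, were below the limit for dim genes on all 4 arrays. C/EBP factors also belong to granulocytes and macrophages. Of 8 granulocyte markers 7 were below the limit on all arrays, and the 8 macrophage and monocyte markers had a summed linear signal of 58.6 to 65.3 in wild type against 53.2 to 59.4 in knockout, with 0 of 4 tested called by limma and 1 (Lyz2) at an unadjusted p below 0.05. Stromal progenitor markers were called in both directions. Of 7 tested, Pdgfra (1.77) and Cxcl12 (1.81) rose, Lepr (−2.26) fell and 4 were not called, and the summed linear signal of the 9 measured was 1273 to 1277 in wild type against 1860 to 1891 in knockout. Dpp4 and Pi16 of this list were below the limit on all arrays. Osteoblast markers were also called in both directions. Of 4 tested, Sp7 (−3.08) and Alpl (−1.76) fell, and Dmp1 rose from a wild-type signal below the limit, to 5.08 from 2.12. Alpl gave −1.06 at a second probe set. The summed linear signal of the 6 measured was 3457 to 3495 in wild type against 2841 to 2988 in knockout. The highest single value of this list, 11.62 log2 in a wild-type array, made up most of the sum of that array. The sum therefore says little about Sp7, Alpl or Dmp1, and such sums follow the brightest genes of a list. Of 6 chondrocyte markers Acan (−1.97) and Comp (−1.21) fell, and the summed linear signal was 2888 to 2914 in wild type against 1793 to 2080 in knockout. Of 7 pericyte and smooth muscle markers Mcam (0.69) rose, Rgs5 (−1.07) fell and 5 were not called. Mcam was not called without the first knockout array, and Rgs5 gave −0.07 at a second, dim probe set. Of 7 endothelial markers 5 were below the limit on all arrays and 0 of 1 tested was called by limma, with 1 (Flt1) at an unadjusted p below 0.05. Of 2 tested skeletal muscle markers Pax7 (1.31) rose. Of 2 tested Schwann and neural markers 0 were called by limma, with 1 (S100b) at an unadjusted p below 0.05. The part of these shifts in the rise of Pparg, Klf15 and Ebf1 was not tested.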

How the data were processed

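Expression was measured on 4 Affymetrix arrays, 2 wild type and 2 Mmp14 knockout. The authors deposited log2 intensities for 41345 probe sets; per the submitters' processing notes limma and oligo were used, with no version or role, and the normalization is not given in the sources used here. Of the probe sets, 23521 had 1 listed gene symbol, 1814 had several and 16010 had none. The brightest probe set stood for a gene (22180 genes), and 12708 genes were tested, those whose mean reached the median over all probe sets (2.34 log2).

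Groups were compared with limma 3.58.1 in R 4.3.3 (lmFit and eBayes, two-sided, no block, 2 residual degrees of freedom), which was tested on simulated data. There 200 genes were changed, fewer than were called in these arrays. The smallest simulated rise, below that of Ebf1, was called in 3% of cases, and a rise of 2 log2 units in 98.9%. A factor that was not called may therefore still differ. P-values were adjusted over all tested genes. The members and lists were chosen with earlier results of these data known, and the motifs after the sequences were seen. Named were the members, up to 4 called genes of each list by size and the 3 nearest profiles of each called member. Other list and marker genes were named after their values were seen. Sequences are from RefSeq (GRCm38.p6), where 7 of the 9 factors had a start window. Alternatives covered filters, normalization, the variance model, array weights, probe sets, thresholds, the replicate number as a block and each array left out. The number of arrays limits the precision.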

Additional observations from a re-analysis of the deposited data

How the results depend on the processing

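Pparg and Klf15 kept their direction and their call in every alternative that tested them. With 3 factors called higher in the comparison as reported, the count was 2 to 4 on leaving out 1 array and 2 or 3 otherwise. Leaving out 1 array leaves 1 group with a single array, assumed to vary like the other genes and arrays. The differences then ranged from 2.07 to 2.56 for Pparg, 0.17 to 0.63 for Cebpa, −0.20 to 0.40 for Cebpb, 0.0049 to 0.26 for Cebpd, 1.82 to 2.0 for Klf15, −0.61 to −0.34 for Zfp423, 0.64 to 0.74 for Ebf1, 0.02 to 0.36 for Ebf2 and 0.03 to 0.18 for Ebf3. Cebpb changed sign without wild type replicate 1 (−0.17) and without Mmp14 knockout replicate 1 (−0.20), with no call in either. Genes called higher over the whole table numbered 394 to 672 and genes called lower 293 to 459 on leaving out 1 array, against 788 and 651, and those of the pathway lists 13 to 16 and 5 to 6, against 19 and 9.

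Ebf1 (0.69) was not called with every probe set in 1 fit or at an adjusted p below 0.01. Zfp423 (−0.48) was the 1 factor called lower with the stricter filter and at an adjusted p below 0.1. With every probe set in 1 fit, 129 were called higher and 89 lower, and 5 and 3 of the pathway lists. At an adjusted p below 0.1 there were 1240 higher and 1125 lower (16 lower in the pathway lists), and below 0.01 there were 264 and 195 (9 and 4). With trend and robust variance 1027 genes were called lower, 14 of them in the pathway lists. The causes were not tested. The replicate numbers did not act as pairs: arrays of the same number deviated from their groups with a correlation of −0.04 over genes. With the replicate number as a block, 606 genes were higher and 451 lower, the same 3 factors were called, and 17 and 8 pathway genes were called. Ncoa1, Igf1, Hes1, Zbtb16 and Eif2s3y were then not called (adjusted p = 0.085, 0.0722, 0.0849, 0.0618 and 0.085). Dim signal limits Klf15, Ebf2, Cebpa and Cebpd.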
